A study of Mus musculus with 27 samples.

Results

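The interferon-inducible GTPases of the Gbp and Irg families were followed in the brains of mice infused with patient-derived antibodies against IgLON5, a neuronal cell adhesion protein. The group comprised 10 genes, Gbp2, Gbp3, Gbp5, Gbp6, Gbp7, Gbp9, Igtp, Irgm1, Irgm2 and Iigp1, chosen by symbol among the 55487 genes of the count table. All 10 were among the 20271 genes with enough counts to be tested. They were chosen with earlier results of these data known. Shares of all genes given beside their counts are therefore a description and no test. RNA sequencing of bulk tissue from the side of the brain opposite to the infusion gave 27 libraries from 14 mice, 14 of cortex and 13 of hippocampus, and 13 mice gave both tissues.

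All animals were male C57Bl/6J wild-type mice, 8 weeks old, that received fluid from an osmotic pump into the right lateral ventricle for 14 days at 0.25 μl/h. One group received PBS (5 cortices and 5 hippocampi), a second a human control IgG, here called pCtrl (5 cortices and 4 hippocampi), and the last α-IgLON5#1, an IgLON5-reactive IgG pool purified from the plasma of a patient with anti-IgLON5 disease (4 cortices and 4 hippocampi). The labels call the control a human monoclonal IgG, whereas the methods of the study describe serum IgG of a healthy donor. A pool from a single patient and a human protein infused into a mouse limit what these groups model. The labels give the cell type as neurons, but markers of astrocytes, oligodendrocytes and microglia were all present, as in whole tissue.

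Guanylate-binding proteins (Gbp) and immunity-related GTPases (Irg) are among the genes that interferon gamma raises most strongly in mouse cells, and type I interferons raise many of them as well. Their products bind GTP, assemble on membranes that enclose bacteria or parasites, and help to break these compartments open. The regulatory Irgm proteins hold the effector GTPases inactive on the membranes of the cell itself. In the resting brain these genes are low, and microglia, endothelium and astrocytes can all raise them in response to interferon.

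The genes lie on 4 chromosomes of the GRCm38 genome, with positions from the GENCODE M21 annotation. On chromosome 3 and the plus strand stood Gbp5 (chr3:142493978-142522344), Gbp7 (chr3:142530342-142550149), Gbp3 (chr3:142560026-142573209) and Gbp2 (chr3:142620602-142638008). On chromosome 5 and the minus strand stood Gbp9 (chr5:105077630-105139539) and Gbp6 (chr5:105270702-105293698). Irgm1 (chr11:48861968-48871683, minus strand) lay apart on chromosome 11 from Igtp (chr11:58199556-58207591) and Irgm2 (chr11:58199618-58222782), which overlap on the plus strand. Iigp1 lay on a chromosome of its own, given with its levels. Near-identical copies make some of these counts uncertain: 67.3% of the 75-base stretches in the Gbp6 exons also occurred in another gene, 61.7% in the overlapping Gm43302 and 40.4% in Gbp10. The share was 11.3% for Gbp7, 7.8% for Igtp and 4.78% for Irgm2, was between 0.578% and 3.61% for Gbp2, Gbp3, Gbp5 and Gbp9, and was 0 for Irgm1 and Iigp1. Igtp and Irgm2 also share 162 exonic bases in the annotation.

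Because the family is named for its response to interferon, the bases upstream of the genes are shown with the letters of both interferon-type elements. RefSeq windows on GRCm38.p6, from 250 bases before to 50 after a transcription start, existed for 7 of the 10 genes (all but Gbp6, Gbp9 and Iigp1). The ISRE-type letters, GAAA and GAAA with any 2 bases between them, or TTTC and TTTC on the other strand, occurred in at least 1 window of all 7, against 3.99% of the 27025 genes with a window. The GAS-type letters TTCNNNGAA, which read the same on both strands, occurred in 4 of the 7 (Gbp5, Gbp7, Igtp and Irgm2), against 9.55% of genes. These matches describe letters in the windows and are not evidence of a bound factor. The 250 bases upstream of Gbp7 (chr3:142530086-142530335, plus strand) and Igtp (chr11:58199306-58199555, plus strand), a member of each family that holds both elements, are given with the matches in capitals.
Gbp7: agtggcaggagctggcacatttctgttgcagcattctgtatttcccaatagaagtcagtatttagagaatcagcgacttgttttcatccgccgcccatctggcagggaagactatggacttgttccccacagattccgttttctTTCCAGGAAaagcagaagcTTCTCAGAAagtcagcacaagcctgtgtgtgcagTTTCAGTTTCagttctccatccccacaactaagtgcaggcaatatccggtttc
Igtp: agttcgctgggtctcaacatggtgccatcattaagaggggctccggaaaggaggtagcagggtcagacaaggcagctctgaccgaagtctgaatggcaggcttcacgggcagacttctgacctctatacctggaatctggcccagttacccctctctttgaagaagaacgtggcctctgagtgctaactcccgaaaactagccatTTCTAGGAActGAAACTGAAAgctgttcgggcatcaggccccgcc

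In Gbp7 the ISRE-type match began 53 bases before the start, and GAS-type matches began 106 and 87 bases before it. In Igtp the GAS-type match began 45 bases and the ISRE-type match 34 bases before the start. The other 5 genes are shown by the 30 bases around the ISRE-type match, again with matches in capitals: Gbp2 (chr3:142620594-142620623, plus strand), Gbp3 (chr3:142559992-142560021, plus strand), Gbp5 (chr3:142496759-142496788, plus strand), Irgm1 (chr11:48871428-48871457, minus strand) and Irgm2 (chr11:58214898-58214927, plus strand).
Gbp2: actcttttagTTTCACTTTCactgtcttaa
Gbp3: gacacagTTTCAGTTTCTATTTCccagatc
Gbp5: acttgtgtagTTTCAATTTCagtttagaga
Irgm1: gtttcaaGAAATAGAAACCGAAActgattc
Irgm2: ccatTTCCAGGAActGAAACTGAAAgctgt

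Gbp3 and Irgm1 each held 2 ISRE-type matches that overlap by 4 bases. In Irgm2, as in Igtp, the GAS-type match was followed after 2 bases by an ISRE-type match with the same 10 letters. Gbp5 also had GAS-type matches that began 245 and 52 bases before its start.

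**Figure D1:**
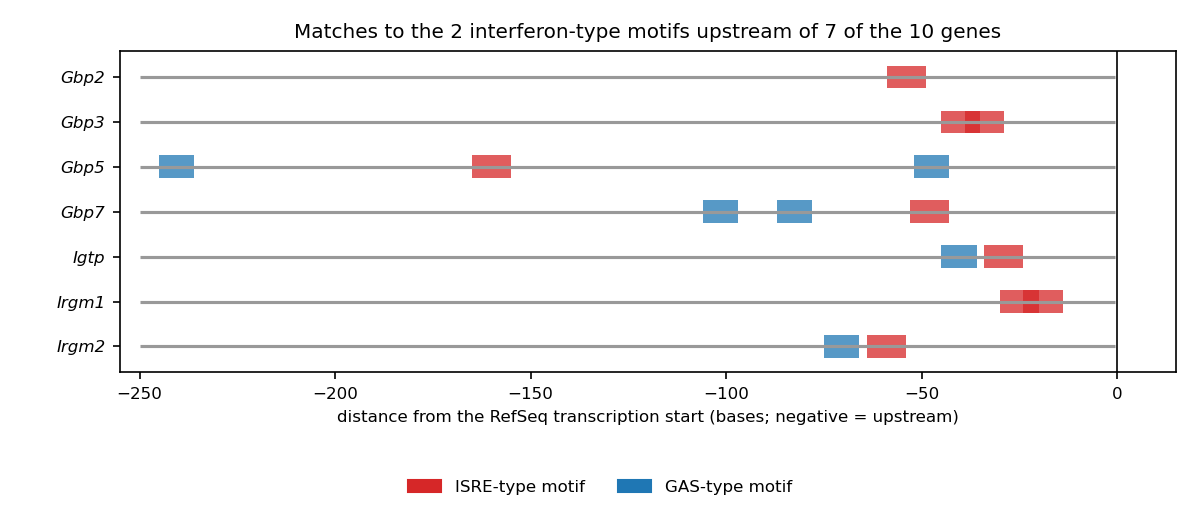
Position of each motif match in the 250 bases upstream of the RefSeq start, for the 7 genes searched. The x axis gives bases before the start, grey lines the upstream stretch, red the ISRE-type and blue the GAS-type matches. In 6 of the 7 genes the ISRE-type matches lie within the last 64 bases, and in Gbp5 the match begins 165 bases before the start.

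Library totals ranged from 19385642 to 58550621 counts, and the 2 closest libraries of a group still differed by more than counting noise. In hippocampus all α-IgLON5#1 totals (19428512 to 32776892) lay below all pCtrl totals (39479753 to 52212204) and overlapped the PBS totals (29098828 to 58550621). In cortex the α-IgLON5#1 totals (26827119 to 54199358) overlapped those of pCtrl (19385642 to 42698201) and PBS (30352765 to 37034675). Whether depth affected the hippocampal comparison with pCtrl or the difference between tissues was not tested. The α-IgLON5#1 mouse numbered 8 stood apart within its group. It had the highest level of all 10 genes among the α-IgLON5#1 libraries of both tissues, and fits without its 2 libraries are given beside those with all libraries, a choice made after its values were seen. Bulk tissue cannot separate more cells of a type from more RNA per cell. Levels are in CPM, the counts of a gene scaled to a common library total and normalized for library composition, and a gene was called a differentially expressed gene (DEG) at an adjusted p under 0.05 with a fold change over 2 in edgeR.

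**Figure D2:**
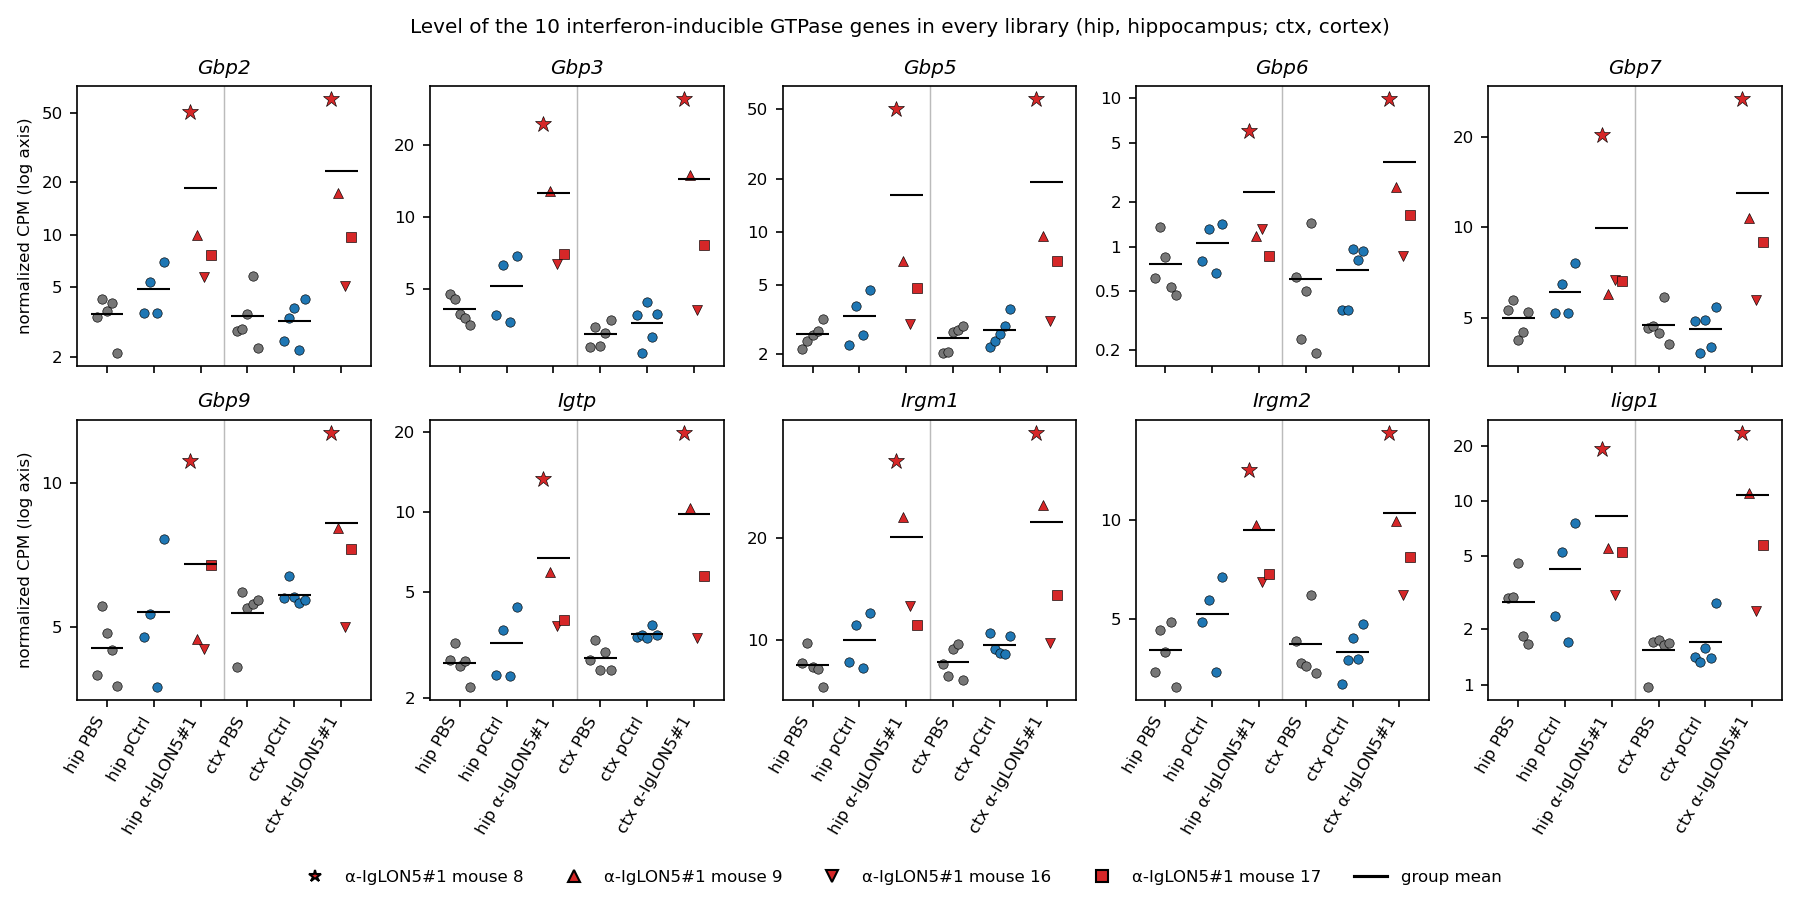
Level of each gene (y axis, normalized CPM on a log axis) in every library of the 6 groups (x axis), with black lines for group means. The α-IgLON5#1 mouse 8 (star) is the highest point in all 10 panels for hippocampus and for cortex, and the PBS and pCtrl libraries lie close together below it.

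In the PBS mice the 10 genes were low, and Irgm1, a regulator of the effector Irg proteins, had the highest level per kilobase of exon in both tissues. It stood at 1.49 ± 0.16 CPM per kb in cortex and 1.46 ± 0.158 in hippocampus (SD, n = 5 each). Gbp2 and Igtp followed, at 1.37 ± 0.555 and 1.4 ± 0.159 CPM per kb in cortex and at 1.39 ± 0.344 and 1.35 ± 0.178 in hippocampus, so that these 3 genes did not differ beyond their spread. Irgm2, Gbp9, Gbp3 and Gbp7 lay between 0.847 and 1.26 CPM per kb, and the last 3 places were held by Iigp1 at 0.266 ± 0.056 in cortex and 0.484 ± 0.202 in hippocampus, Gbp5 at 0.374 ± 0.0605 and 0.393 ± 0.0582, and Gbp6 at 0.101 ± 0.0853 and 0.128 ± 0.0598. None of the 10 genes was called between the tissues of PBS mice in edgeR, where 2.7% of genes were called higher in cortex and 2.87% lower, and the 10 adjusted p ran from 0.263 to 0.979, with 0 of the unadjusted p under 0.05. Iigp1, an effector Irg GTPase, had the largest difference of the 10, a log2 fold change of cortex over hippocampus of -0.86 ± 0.53 (SE).

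In cortex, 9 of the 10 genes rose with α-IgLON5#1 against pCtrl, all but Gbp9, whereas 2.14% of the 20271 genes tested were called higher. The guanylate-binding protein genes Gbp2 and Gbp5 and the effector Iigp1 rose most, by more than 6-fold each. The median log2 fold change of the 10 was 1.73, against -0.01 over all genes tested. Against PBS the same 9 genes were called, with a median of 1.96 and a background of 2.24% of genes called higher, and their log2 fold changes ran from 1.31 for Irgm2 to 2.94 for Gbp5 (edgeR adjusted p from 0.00111 to 0.0144). Both comparisons use the same α-IgLON5#1 libraries and are not independent.

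Gbp2 codes for a guanylate-binding protein that coats vacuoles of intracellular pathogens. In the α-IgLON5#1 cortices of mice 8, 9, 16 and 17 it stood at 60.3, 17.3, 5.1 and 9.68 CPM. The 5 pCtrl cortices had 2.47, 3.35, 3.81, 2.18 and 4.29 CPM and the 5 PBS cortices 2.79, 2.87, 3.5, 5.8 and 2.23 CPM. All 4 α-IgLON5#1 libraries lay above every pCtrl library, and mouse 16 lay below the highest PBS library. The log2 fold change against pCtrl was 2.83 ± 0.58 (SE; edgeR adjusted p = 0.00364), and without mouse 8 it was 1.72 ± 0.33 (edgeR adjusted p = 0.00308).

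Gbp5 codes for a guanylate-binding protein known for promoting inflammasome assembly. It reached 57.2 CPM in the cortex of α-IgLON5#1 mouse 8 and 9.49, 3.12 and 6.83 CPM in mice 9, 16 and 17. The pCtrl cortices had 2.22, 2.4, 2.61, 2.91 and 3.62 CPM, and the PBS cortices 2.04, 2.07, 2.69, 2.74 and 2.89 CPM. Mouse 16 overlapped the pCtrl libraries and lay above every PBS library. The log2 fold change against pCtrl was 2.79 ± 0.67 with all libraries (edgeR adjusted p = 0.0148) and 1.22 ± 0.28 without mouse 8 in both tissues (edgeR adjusted p = 0.0141). The estimate thus fell by more than a log2 unit and kept its call in that fit. With only the cortex library of mouse 8 left out, Gbp5 was not called.

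Gbp3, a relative of Gbp2 from the same chromosome 3 cluster, stood at 31.1, 15, 4.12 and 7.67 CPM in the α-IgLON5#1 cortices of mice 8, 9, 16 and 17. It ranged from 2.72 to 4.45 CPM in pCtrl and from 2.88 to 3.74 CPM in PBS. All 4 libraries were above the PBS range and 3 above the pCtrl range. Against pCtrl the log2 fold change was 1.97 ± 0.40 (edgeR adjusted p = 0.00277), and 1.27 ± 0.28 without mouse 8 (edgeR adjusted p = 0.0129).

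Iigp1 (chr18:60376027-60392634, plus strand), which codes for the Irga6 effector, stood at 23.5, 11.1, 2.52 and 5.76 CPM in mice 8, 9, 16 and 17. The pCtrl cortices had 1.41, 1.33, 1.58, 1.4 and 2.79 CPM and the PBS cortices 0.971, 1.71, 1.75, 1.64 and 1.68 CPM. All 4 α-IgLON5#1 libraries were above every PBS library, and mouse 16 lay below the highest pCtrl library. In the fit against pCtrl its log2 fold change was 2.64 ± 0.54 (edgeR adjusted p = 0.00357), and 1.89 ± 0.43 without mouse 8 (edgeR adjusted p = 0.0145).

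The 3 other Irg genes rose by less. Igtp, which codes for the regulatory protein Irgm3, stood at 19.9, 10.4, 3.36 and 5.77 CPM in the α-IgLON5#1 cortices, against 3.37 to 3.76 CPM in pCtrl and 2.55 to 3.31 CPM in PBS. Irgm1 stood at 40.8, 25, 9.86 and 13.6 CPM, against 9.13 to 10.5 CPM in pCtrl, and Irgm2, also a regulatory member, at 18.3, 9.92, 5.93 and 7.69 CPM, against 3.19 to 4.85 CPM. For Igtp and Irgm1 mouse 16 lay within or below the pCtrl range, and for Irgm2 all 4 libraries lay above it. The log2 fold changes against pCtrl were 1.49 ± 0.36 for Igtp, 1.20 ± 0.29 for Irgm1 and 1.38 ± 0.27 for Irgm2 (edgeR adjusted p = 0.0134, 0.0161 and 0.00197). Without mouse 8 they were 0.88 ± 0.24, 0.73 ± 0.22 and 0.96 ± 0.21, and none of the 3 was called, Irgm2 because its fold fell under 2 (edgeR adjusted p = 0.0102).

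Gbp7 and Gbp6, further guanylate-binding protein genes, were also called with all libraries. Gbp7 stood at 26.7, 10.7, 5.76 and 8.95 CPM in the α-IgLON5#1 cortices, all above the pCtrl range of 3.83 to 5.42 CPM, with a log2 fold change of 1.49 ± 0.33 (edgeR adjusted p = 0.00733) and 0.86 ± 0.17 without mouse 8, where the fold was under 2 (edgeR adjusted p = 0.00304). Gbp6 rested on few and partly shared reads, from 7 to 41 counts in the pCtrl cortices, and stood at 9.89, 2.53, 0.857 and 1.63 CPM. Its log2 fold change was 2.38 ± 0.63 (edgeR adjusted p = 0.0306), and 1.20 ± 0.46 without mouse 8 (edgeR adjusted p = 0.275). Gbp9 was the gene of the group with no call in any comparison: its cortices had 12.7, 8.05, 5 and 7.26 CPM with α-IgLON5#1 and 5.62 to 6.39 CPM with pCtrl, and the log2 fold change was 0.49 ± 0.23 (edgeR adjusted p = 0.309).

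Without mouse 8 in either tissue, 4 of the 10 genes remained called against pCtrl in cortex (Gbp2, Gbp3, Gbp5 and Iigp1, with 1.2% of genes called higher) and 5 against PBS (these and Igtp, with 1.44%). The median log2 fold changes were then 1.08 and 1.28, and all 10 estimates stayed above 0. When only the cortex library of mouse 8 was left out, while its hippocampus stayed in the shared fit, no gene was called against pCtrl and 2 against PBS (Gbp3 and Iigp1), with 1.06% and 1.3% of genes called higher. All α-IgLON5#1 libraries lay above all libraries of the other group for 3 genes against pCtrl (Gbp2, Gbp7 and Irgm2) and for 6 against PBS (Gbp3, Gbp5, Igtp, Irgm1, Irgm2 and Iigp1), where 3.68% and 3.14% of all genes did so. With limma-voom and each mouse as a block, Gbp7 and Irgm2 were called against pCtrl (1.25% of genes) and 5 genes against PBS (Gbp3, Gbp7, Igtp, Irgm1 and Irgm2, with 1.42%), and without the block Irgm2 alone was called in each (1.1% and 1.3%). A fit on only the groups compared called 3 of the 10 against pCtrl (1.17% of genes) and 2 against PBS (1.26%). The α-IgLON5#1 mice are numbered 8 to 17 and the other mice 10 to 75. What the numbers stand for beyond the animal is not given, and they cannot be fully told apart from treatment. Animals 8 to 17 alone, with the pCtrl cortices of mice 10, 11 and 15, gave none against pCtrl (0.0461%).

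**Figure D3:**
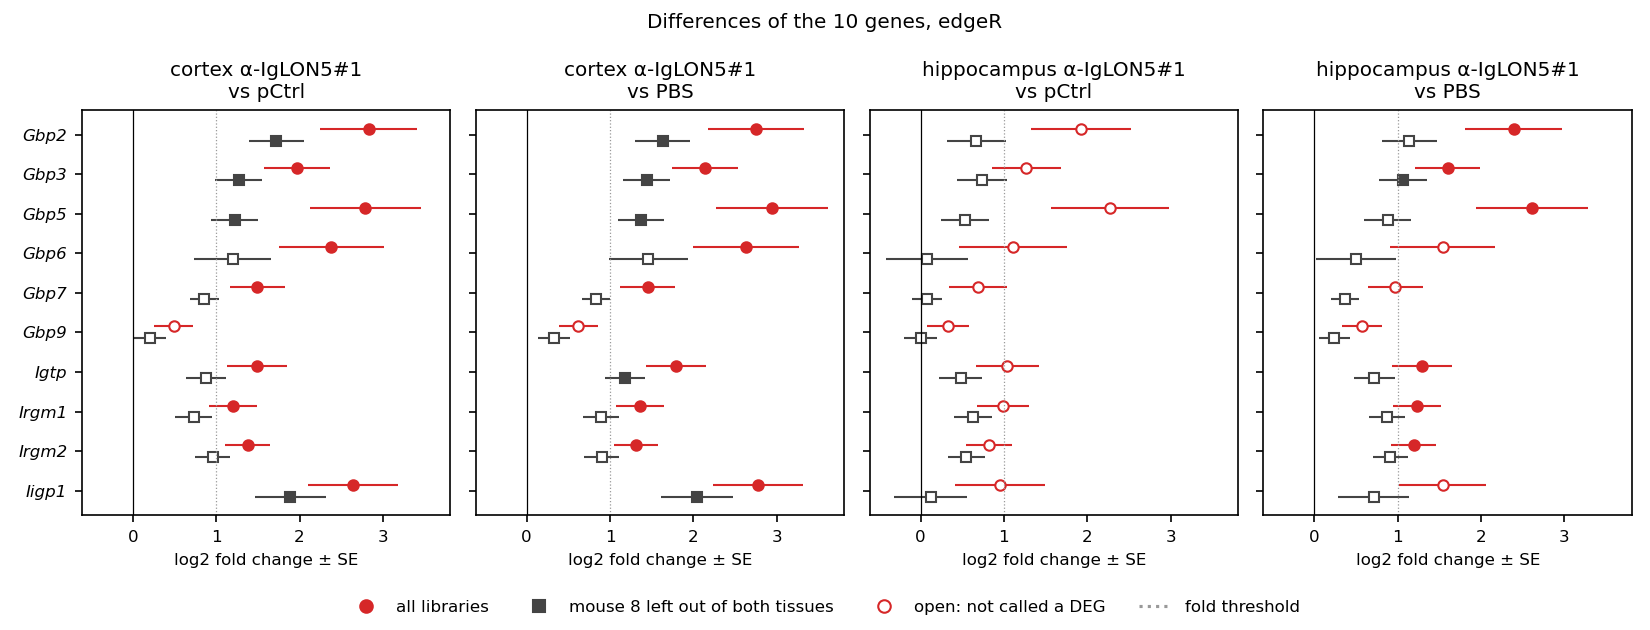
Log2 fold change with its SE (x axis) of each gene (rows) in the 4 comparisons with α-IgLON5#1, from edgeR with all libraries (red circles) and with mouse 8 left out of both tissues (grey squares); filled symbols are DEGs. Every red estimate lies above 0, 9 are filled in each cortex panel, none against pCtrl in hippocampus and 6 against PBS, and the grey estimates are smaller in each panel.

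In hippocampus, none of the 10 genes was called with α-IgLON5#1 against pCtrl in edgeR, where 2.21% of genes were called higher. All 10 log2 fold changes were above 0, with a median of 1.02, 6 genes had an unadjusted p under 0.05, and the adjusted p ran from 0.0502 for Gbp5 and Irgm1 to 0.48 for Gbp9. DESeq2 called 3 of them (Gbp2, Gbp3 and Gbp5, with 2.14% of genes called higher), edgeR without a count filter beyond 1 count called 2 (Gbp2 and Gbp5, with 1.25%), and edgeR on genes with at least 10 counts in every library called 1 (Gbp5, with 1.36%). Against PBS 6 rose in edgeR (Gbp2, Gbp3, Gbp5, Igtp, Irgm1 and Irgm2), where 2.56% of genes were called higher, and the median was 1.41.

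Gbp2 in the α-IgLON5#1 hippocampi of mice 8, 9, 16 and 17 stood at 50.8, 10, 5.76 and 7.62 CPM. The 4 pCtrl hippocampi had 3.56, 5.38, 3.55 and 6.97 CPM and the 5 PBS hippocampi 3.38, 4.31, 3.67, 4.07 and 2.1 CPM. All 4 α-IgLON5#1 libraries were above the PBS libraries, and mouse 16 was below the highest pCtrl library. The log2 fold change was 2.39 ± 0.58 against PBS (edgeR adjusted p = 0.0113) and 1.92 ± 0.60 against pCtrl (edgeR adjusted p = 0.0526), and without mouse 8 these were 1.14 ± 0.33 and 0.67 ± 0.35 (edgeR adjusted p = 0.0635 and 0.325).

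Gbp5 stood at 50.2, 6.82, 3 and 4.79 CPM in the same hippocampi, against 2.27, 3.78, 2.57 and 4.67 CPM with pCtrl and 2.15, 2.4, 2.58, 2.73 and 3.18 CPM with PBS. Mouse 16 lay inside the range of both other groups. The log2 fold change against PBS was 2.61 ± 0.67 (edgeR adjusted p = 0.0194), and 0.88 ± 0.28 without mouse 8 (edgeR adjusted p = 0.117).

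Gbp3 was the gene whose call against PBS held without mouse 8 in both tissues. With only the hippocampus library of mouse 8 left out, Gbp3 was not called. It stood at 24.3, 12.8, 6.37 and 7.05 CPM with α-IgLON5#1, at 3.92, 6.3, 3.66 and 6.88 CPM with pCtrl and between 3.56 and 4.78 CPM with PBS. All 4 libraries lay above the PBS range. Against PBS the log2 fold change was 1.60 ± 0.39 (edgeR adjusted p = 0.0137), and 1.06 ± 0.29 without mouse 8 (edgeR adjusted p = 0.0339).

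The 3 regulatory Irg genes also rose against PBS. Irgm1 stood at 33.6, 23.1, 12.6 and 11.1 CPM with α-IgLON5#1 and between 7.3 and 9.86 CPM with PBS, a log2 fold change of 1.23 ± 0.29 (edgeR adjusted p = 0.00994). Irgm2 stood at 14.1, 9.63, 6.5 and 6.88 CPM against 3.13 to 4.9 CPM, a log2 fold change of 1.19 ± 0.27 (edgeR adjusted p = 0.00601). Igtp stood at 13.3, 5.97, 3.74 and 3.95 CPM against 2.21 to 3.22 CPM, a log2 fold change of 1.29 ± 0.36 (edgeR adjusted p = 0.039). In all 3 genes every α-IgLON5#1 library lay above every PBS library. Without mouse 8 the estimates were 0.87, 0.91 and 0.72, and no call held, although the adjusted p of Irgm1 and Irgm2 stayed at 0.0219 and 0.00979 in edgeR with a fold under 2.

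Gbp6, Gbp7, Gbp9 and Iigp1 did not pass in hippocampus. Gbp7 stood at 20.3, 6.03, 6.71 and 6.65 CPM against 4.22 to 5.76 CPM in PBS, with no overlap, and had a log2 fold change of 0.97 ± 0.33 (edgeR adjusted p = 0.109). Iigp1 stood at 19.2, 5.52, 3.06 and 5.3 CPM, against 1.67 to 4.6 CPM in PBS and 1.71 to 7.56 CPM in pCtrl. Mouse 16 lay within the PBS range, and mice 9, 16 and 17 lay within the pCtrl range. Gbp6 stood at 6, 1.18, 1.32 and 0.86 CPM against 0.471 to 1.35 CPM in PBS, and Gbp9 at 11.1, 4.73, 4.5 and 6.73 CPM against 3.77 to 5.54 CPM. For Gbp6 mouse 8 alone was above the PBS range, and for Gbp9 mice 8 and 17 were. The log2 fold changes against PBS were 1.54 ± 0.52 for Iigp1, 1.54 ± 0.63 for Gbp6 and 0.57 ± 0.24 for Gbp9 (edgeR adjusted p = 0.107, 0.213 and 0.225).

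Every α-IgLON5#1 hippocampus lay above every PBS hippocampus for 6 of the 10 genes (Gbp2, Gbp3, Gbp7, Igtp, Irgm1 and Irgm2), where 4.49% of all genes did so, and above every pCtrl hippocampus for none, where 6.68% did so. Single libraries moved these counts. Without the hippocampus of mouse 8 none of the 10 was called against PBS (1.85% of genes), and without mouse 8 in both tissues 1 was (Gbp3, with 2.06% of genes called higher) and none against pCtrl (1.7%). Without α-IgLON5#1 mouse 16, 5 genes were called against pCtrl (Gbp2, Gbp3, Gbp5, Igtp and Irgm1, with 2.5% of genes called higher), and without mouse 17, 4 were (Gbp2, Gbp3, Gbp5 and Irgm1, with 2.34%). Without the PBS hippocampus of mouse 32 the count against PBS was 4 (2.31%). With limma-voom, Irgm2 alone was called against PBS and none of the 10 against pCtrl, both with the mouse as a block (2.05% and 1.87% of genes) and without it (1.96% and 1.8%).

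The control IgG alone was compared with PBS to measure these genes under an infused human antibody without IgLON5 reactivity. None of the 10 was called in either tissue in edgeR, none had an unadjusted p under 0.05, and 0.0493% of genes were called higher in hippocampus and 0% in cortex. DESeq2 called none of the 10 either, with 0.232% and 0% of genes called higher. The median log2 fold change was 0.34 in hippocampus, with all 10 above 0 and the highest, Iigp1, at 0.59 ± 0.52, and 0.15 in cortex, from -0.09 for Gbp2 to 0.30 for Igtp. Igtp in cortex was the gene for which all pCtrl libraries (3.37 to 3.76 CPM) lay above all PBS libraries (2.55 to 3.31 CPM), which 0.755% of genes did, and its edgeR adjusted p was 0.874. In hippocampus no gene of the 10 was above PBS in all pCtrl libraries, against 1.87% of genes.

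The difference between tissues was tested directly, as the α-IgLON5#1 effect against pCtrl in hippocampus minus that in cortex. All 10 estimates were below 0, with a median of -0.63, and none passed in edgeR, nor did any other gene (0% called). DESeq2 called none of the 10 either, and 1 of them had an unadjusted p under 0.05 in edgeR. The largest was Iigp1 at -1.69 ± 0.76, with an unadjusted p of 0.036 in edgeR and an adjusted p of 0.428, and the other 9 ran from -1.27 for Gbp6 to -0.17 for Gbp9. Without mouse 8 the estimate for Iigp1 was -1.77 ± 0.63 (edgeR adjusted p = 0.53). A cortical effect larger than the hippocampal one was thus not detected for any of these genes with 4 or 5 libraries a group.

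The 4 α-IgLON5#1 mice differed among themselves in one order in cortex. There all 10 genes fell in the order mouse 8, 9, 17, 16 from high to low, and in hippocampus 6 of 10 did, with mouse 8 highest in all 10. As a median over the 10 genes, the fold over the PBS mean of the tissue was 8.28 for mouse 8, 3.73 for mouse 9, 2.19 for mouse 17 and 1.26 for mouse 16 in cortex, and 5.38, 2.29, 1.6 and 1.43 in hippocampus. Mouse 8 had all 10 genes at more than 2-fold in both tissues, mouse 9 had 9 in cortex and 6 in hippocampus, mouse 17 had 6 and 1, and mouse 16 had none. The 10 genes varied together, so these are not 10 separate observations. The shares of all genes with the order above or at more than 2-fold are not reported here. The widest range among the 4 mice was that of Gbp5, 18.3-fold from lowest to highest in cortex and 16.7-fold in hippocampus, and the narrowest in cortex that of Gbp9 at 2.54-fold. Among pCtrl hippocampi mice 15 and 75 had median folds of 1.44 and 1.67, as high as α-IgLON5#1 mice 16 and 17, while their cortices stood at 1.07 and 1.21. In mouse 75 Iigp1 reached 7.56 CPM in hippocampus, 2.68-fold over the PBS mean.

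**Figure D4:**
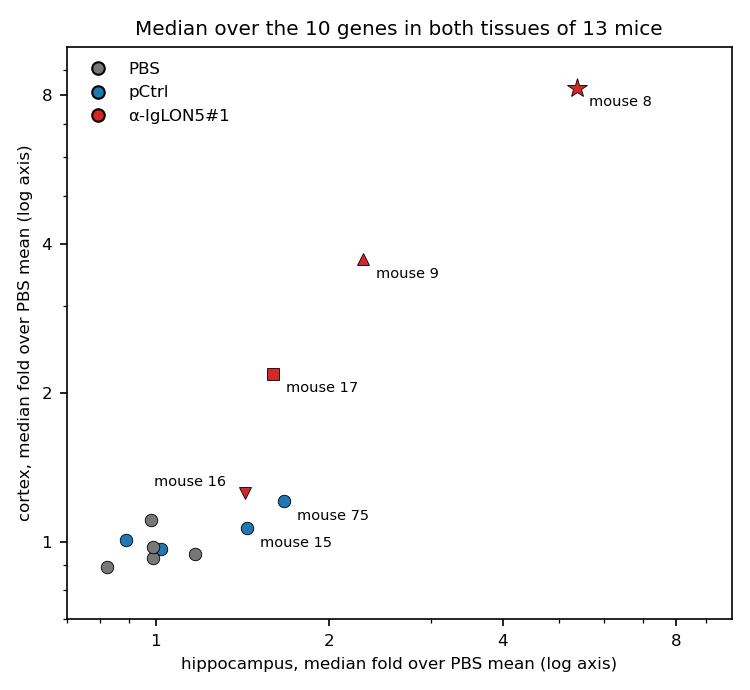
Median over the 10 genes of the fold over the PBS mean, in hippocampus (x axis) and cortex (y axis), both on log axes, for the 13 mice with both tissues. The α-IgLON5#1 mice spread from 1.43 and 1.26 (mouse 16) to 5.38 and 8.28 (mouse 8), and pCtrl mice 15 and 75 are shifted to the right at 1.44 and 1.67 in hippocampus.

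Levels of the genes varied together over libraries. The Pearson r of log2 CPM between pairs of the 10 genes had a median of 0.94 over the 14 cortices (0.73 to 0.98) and 0.89 over the 13 hippocampi (0.71 to 0.99), and of 0.86 and 0.70 without mouse 8. The genes outside the group with the most similar pattern, by r with the mean standardized log2 CPM of the 10, were Parp14 (0.99), Rnf213, Parp9, Vasp and Isg15 (0.98 each) in cortex, and Parp14, Rnf213, Parp9, Ddx58 (0.98 each) and Rtp4 (0.97) in hippocampus. Parp14 stayed among the 5 most similar genes in both tissues without mouse 8 (0.98 in cortex and 0.97 in hippocampus). These values describe libraries that share a treatment within each group, and are no test.

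Of 12 further interferon-inducible GTPase genes and relatives, 11 of them of the Gbp and Irg families and 1, Gvin1, a very large inducible GTPase of a separate family, 10 had enough counts. Of these, 2 were called higher against pCtrl in cortex, 4 against PBS in cortex, 3 against PBS in hippocampus and 0 against pCtrl in hippocampus. Without mouse 8 these counts were 1, 2, 1 and 0. The shares of all genes tested called higher, in the same order, were 2.14%, 2.24%, 2.56% and 2.21%. Without mouse 8 the shares were 1.2%, 1.44%, 2.06% and 1.7%. Ifi47, which codes for the effector Irgd, stood at a mean of 3.67 ± 3.29 CPM in α-IgLON5#1 cortex and 0.779 ± 0.158 in pCtrl cortex (SD, n = 4 and 5), a log2 fold change of 2.22 ± 0.50 (edgeR adjusted p = 0.00872) and 1.37 without mouse 8 (edgeR adjusted p = 0.0224). Gm12250, an Irg-family gene known as Irgb10, was called against PBS in both tissues and kept both calls without mouse 8, with log2 fold changes of 2.78 ± 0.54 in cortex and 2.43 ± 0.53 in hippocampus (edgeR adjusted p = 0.0017 and 0.00418), on 2 to 76 counts in cortex. Its call against pCtrl in cortex (2.17 ± 0.52, edgeR adjusted p = 0.0131) was lost without mouse 8 (1.58, edgeR adjusted p = 0.123). Tgtp2, near-identical to Tgtp1, was called against PBS in cortex at 1.62 ± 0.36 and in hippocampus at 1.31 ± 0.36 (edgeR adjusted p = 0.00625 and 0.0319), and both calls were lost without mouse 8 (1.31 and 1.06, edgeR adjusted p = 0.054 and 0.141). Gvin1 was called against PBS in cortex at 2.04 ± 0.54 (edgeR adjusted p = 0.0297) and had too few counts to be tested without mouse 8. Irgq, a distant family member, stood at -0.12 ± 0.06 against pCtrl in cortex (edgeR adjusted p = 0.358), and Gbp4, Gbp8, Gbp10, Gbp11 and Tgtp1 passed in none of the 4 comparisons. Gbp2b and Irgc1 were too low to test, with 13 and 112 counts over all 27 libraries.

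Interferon gamma itself was almost absent from these libraries: Ifng had 2 counts over all 27, in a pCtrl cortex and in the cortex of mouse 8, and 0 counts in every hippocampus. Ifnb1 had 5 counts in 3 libraries, and Ifna2 and Ifna4 had 0 in all 27. At this depth no difference between groups was detectable for these 4 genes. Of the 15 interferon gamma signalling genes tested, 1 was called higher in cortex against pCtrl, 3 in cortex against PBS, 2 in hippocampus against pCtrl and 3 in hippocampus against PBS, and none lower. The shares of all genes tested called higher, in the same order, were 2.14%, 2.24%, 2.21% and 2.56%.

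Nlrc5, the transactivator of MHC class I genes, was called in all 4 of these comparisons, with and without mouse 8. Its log2 fold change was 2.67 ± 0.41 in cortex and 2.02 ± 0.41 in hippocampus against pCtrl (edgeR adjusted p = 0.00014 and 0.00291). Irf8, a myeloid transcription factor, was called in hippocampus at 1.38 ± 0.15 against pCtrl and 1.38 ± 0.14 against PBS (edgeR adjusted p = 1.5e-06 and 2.43e-07), while in cortex it passed the p threshold with a fold under 2. Irf8 spanned 11.7 to 17.5 CPM in the 4 hippocampi, with mouse 8 at 17.1 CPM. Irf1, a transcription factor induced by interferon, was called in cortex against PBS (1.18 ± 0.28, edgeR adjusted p = 0.0123) and not without mouse 8. Socs3, an inhibitor of cytokine signalling, was called in hippocampus against PBS at 1.90 ± 0.51 (edgeR adjusted p = 0.0274), with 23.1 CPM in mouse 8 against a group median of 4.01, and without mouse 8 it was not called (0.70, edgeR adjusted p = 0.0242, with a fold under 2). The receptor gene Ifngr1 passed the p threshold in hippocampus against pCtrl with a fold under 2 (0.56 ± 0.10, edgeR adjusted p = 0.00053), and Jak1 and Jak2 lay between -0.06 and 0.14 in the 4 comparisons.

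Among 11 other interferon gamma response genes tested, 8 were called higher in cortex against pCtrl and 7 against PBS, and 5 (Cxcl10, Psmb8, Psmb9, Tap1 and B2m) and 6 in hippocampus. Without mouse 8 the counts were 7, 6, 3 and 4, and each gene called then was also called with all libraries. The shares of all genes tested called higher, in the same order, were 2.14%, 2.24%, 2.21% and 2.56%. Without mouse 8 the shares were 1.2%, 1.44%, 1.7% and 2.06%. B2m, the light chain of MHC class I, was called in all 4 comparisons, with log2 fold changes of 1.02 ± 0.11 in cortex and 1.21 ± 0.12 in hippocampus against pCtrl (edgeR adjusted p = 3.64e-06 and 4.61e-07). Without mouse 8 its fold against pCtrl in cortex fell just under 2 (log2 fold change 0.99, edgeR adjusted p = 2.33e-05), and the other 3 calls held. The proteasome subunit gene Psmb10 and the peptide transporter gene Tap2 were not called in any. Among 20 type I interferon response genes, 15 were called higher in cortex against pCtrl and 17 against PBS, and 3 (Mx1, Irf7 and Bst2) and 7 in hippocampus. Without mouse 8 these counts were 6, 8, 0 and 1, and the shares of all genes are those given above in this order. Ifit3 was called in cortex (1.78 ± 0.49 against pCtrl and 1.88 ± 0.49 against PBS, edgeR adjusted p = 0.0364 and 0.0254) and in neither without mouse 8 (1.16 and 1.26, edgeR adjusted p = 0.188 and 0.143), while Cmpk2 and Ifit2 were called in none of the 4. The type I receptor genes Ifnar1 and Ifnar2 and the kinase gene Tyk2 were not called in any comparison.

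Marker genes of other cells also differed between the groups. Of the 8 microglial markers C1qa alone was called higher in each of the 4 comparisons, where 2.14% to 2.56% of all genes tested were. Without mouse 8 Tmem119 and Cx3cr1 were called as well in hippocampus against PBS (2.06% of genes). The 8 did not all rise against pCtrl: 5 estimates were above 0 in cortex (median log2 fold change 0.21) and 7 in hippocampus (0.67). Their summed level, which the most abundant markers weigh on most, was 478 to 536 CPM in α-IgLON5#1 cortices and 358 to 437 CPM in pCtrl cortices. In hippocampus the sum was 500 to 907 against 366 to 417 CPM, and mouse 8 had the lowest sum of the α-IgLON5#1 libraries in both tissues. The 8 border macrophage and monocyte markers did not move in one direction. In cortex against pCtrl Ms4a7, Ccr2, Ly6c2 and Plac8 were called higher and Lyve1 lower, and without mouse 8 the calls of Ms4a7, Ly6c2 and Lyve1 held. Ms4a7 stood at 2.26 to 4.67 CPM in the 4 α-IgLON5#1 cortices and 0.702 to 1.2 CPM in pCtrl, and the monocyte marker Ccr2 at 1.93 to 14.1 CPM against 0.407 to 1.74 CPM, with mouse 8 highest for both. Lyve1, a marker of border macrophages, stood at 0.361 to 0.976 CPM against 0.905 to 2.17 CPM. Summed over the 8 markers the α-IgLON5#1 cortices ranged from 12.2 CPM in mouse 9 to 58.8 CPM in mouse 8 and the hippocampi from 8.05 to 47.6 CPM in the same mice, against 13.3 to 22.7 CPM and 17.5 to 24.9 CPM in pCtrl, a sum in which Mrc1 was a large part (1.66 to 25 CPM in α-IgLON5#1 cortices). The 6 neutrophil markers stood at 12.4 and 7.68 CPM in mouse 8 and at 0.881 to 2.87 CPM in the 3 others, against 0.998 to 4.64 CPM in the pCtrl libraries, with the defining marker Ly6g at no more than 2 counts in any library.

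Lymphocyte markers were low throughout. The 12 T and NK cell markers, of which 3 had enough counts to be tested and none was at 0 in all libraries, summed to 2.86 to 6.22 CPM in α-IgLON5#1 cortices and 1.1 to 1.65 CPM in pCtrl cortices, and to 2.65 to 5.46 against 1.12 to 2.18 CPM in hippocampus, with mouse 8 highest in each tissue. Among them Gzmb had 22 counts in the cortex of mouse 8 and at most 1 in any pCtrl or PBS cortex. The 6 B cell markers summed to 1.59 to 6.77 CPM against 0.777 to 1.2 CPM in cortex and to 1.97 to 8.02 against 0.88 to 1.24 CPM in hippocampus, again highest in mouse 8. Endothelial markers overlapped between groups, at 108 to 153 CPM in α-IgLON5#1 and 111 to 143 CPM in pCtrl cortices. The 8 neuronal markers summed to 9030, 9370, 11000 and 9550 CPM in the α-IgLON5#1 cortices of mice 8, 9, 16 and 17. The pCtrl cortices had 10100 to 11800 CPM and the PBS cortices 8880 to 11600 CPM. All 8 estimates in cortex were below 0 against pCtrl (median log2 fold change -0.12) and PBS (-0.09), and none was called. In hippocampus the sums overlapped, at 8550 to 9460 against 8480 to 8970 CPM in pCtrl. The part of any of these cells in the levels of the GTPase genes was not tested.

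**Figure D5:**
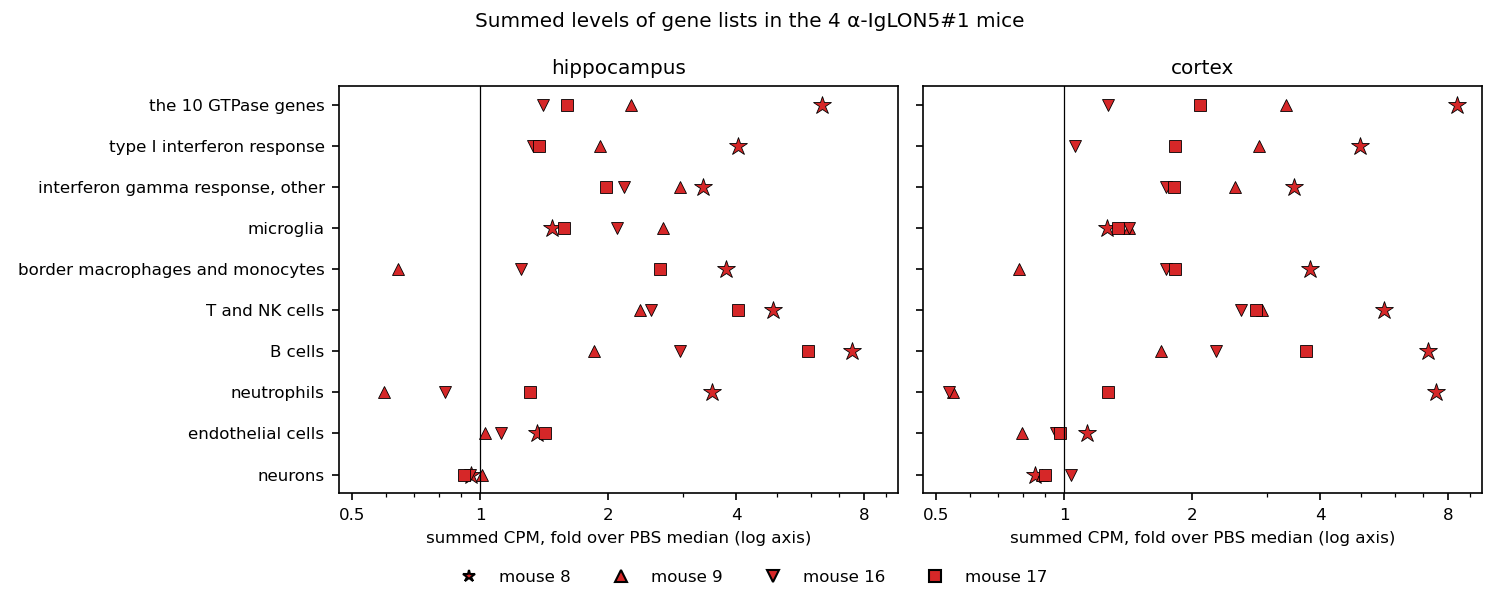
Summed CPM of each gene list (rows) in the 4 α-IgLON5#1 mice, as fold over the PBS median of the tissue (x axis, log scale), in hippocampus (left) and cortex (right). The 10 GTPase genes span 1.41 to 6.39 in hippocampus and 1.27 to 8.38 in cortex with mouse 8 (star) highest, while mouse 8 is the lowest of the 4 for microglial markers, at 1.48 and 1.26.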

How the data were processed

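Bulk RNA was sequenced from 14 cortices and 13 hippocampi. Whole-number counts per gene were deposited by the authors as 1 table of the series; per the labels and methods, mRNA libraries were made with a stranded kit, sequenced in paired-end mode and aligned to GRCm38 with STAR, and the counting program is not given in the sources used here. No other values were used. Of 55487 row identifiers, 55227 were in GENCODE M21 after the version was dropped. Groups came from the labels. The 10 genes and all lists were chosen with earlier results of these data known.

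The 20271 genes that reached 10 counts in 4 or more libraries were fitted with edgeR 4.0.16 in R 4.3.3 (TMM normalization, quasi-likelihood test) on 6 groups of tissue by treatment without covariates, and p-values were adjusted by Benjamini-Hochberg over all genes tested. A DEG needed a fold change over 2 besides an adjusted p under 0.05, and the test of the difference between tissues used no fold threshold. The SE is the log2 fold change divided by the root of F. No p-value was adjusted over the 10 genes alone. The script was tested on simulated data. Replicates are separate mice; over 48 pairs of libraries within groups, chi-square divided by its degrees of freedom was 4.42 or more. Named genes were the 10, further family and interferon gamma signalling genes, up to 3 of highest level per other list, and the 5 genes of most similar pattern per tissue; other markers of cell types (C1qa, Tmem119, Ms4a7, Ccr2, Ly6c2, Plac8, Lyve1, Mrc1, Gzmb, Ly6g) and the interferon response genes given in brackets were picked after their values were seen. Log2 CPM for correlations used a prior count of 1.

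The replicate number is the mouse, so libraries of the same number come from 1 animal. Deviations from group means correlated between the tissues of a mouse with a median r of 0.194 (-0.0498 to 0.443, 13 mice), and the within-mouse correlation in limma-voom was 0.165. Alternatives were DESeq2 1.42.0, limma 3.58.1 voom with the mouse as a block, other size factors, count filters and sets of samples, and each library left out. Limma-voom without a block and mouse 8 left out of both tissues were added after the data were seen. Promoter windows are RefSeq, GRCm38.p6. Results for some genes of the lists are not reported here.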

Additional observations from a re-analysis of the deposited data

Results flagged for a closer look

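Within each of the 6 groups and for each of the 10 genes, the highest or lowest library was compared with the rest by Dixon's test. Of 60 such groups 11 were marked. The nominal rate of about 1 in 20 assumes normally distributed values, which was not tested for these CPM. The 11 are therefore not read as an excess over chance. In 6 of the 11 the library was that of α-IgLON5#1 mouse 8 at the top of its group: Gbp2 (50.8 CPM), Gbp5 (50.2 CPM), Gbp6 (6 CPM), Gbp7 (20.3 CPM) and Iigp1 (19.2 CPM) in hippocampus, and Gbp5 in cortex (57.2 CPM). The groups share libraries and the genes move together, so these are not 6 separate events.

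The other 5 concerned control cortices and small gaps. Gbp9 was lowest in PBS mouse 14 (4.13 CPM) and highest in pCtrl mouse 11 (6.39 CPM). Iigp1 was lowest in the same PBS mouse 14 (0.971 CPM) and highest in pCtrl mouse 75 (2.79 CPM), the animal whose hippocampus also had the highest pCtrl level of this gene. Igtp was highest in pCtrl mouse 37 (3.76 CPM), within a group that spans 3.37 to 3.76 CPM.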

How the results depend on the processing

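No estimate of the 10 genes that was called changed sign under any alternative run. For α-IgLON5#1 against pCtrl in hippocampus, where none of the 10 was called, DESeq2 called 3 (2.14% of genes called higher). A fit on all genes with a count called 2 (1.25%). A filter of at least 10 counts in every library called 1 (1.36%), and Gbp6 was then not tested. Leaving out single libraries gave 0 to 5 (2.5% in the run with 5). Against PBS in hippocampus the 6 calls became 4 on the groups compared alone and 1 without mouse 8 in both tissues (2.06%). With a library left out they became 0 to 7 (1.85% in the run with 0). The shares of all genes for the runs with 4 calls on the groups compared and with 7 calls are not reported here. In cortex the 9 calls against pCtrl became 3 on the groups compared alone (1.17%) and 0 with animals 8 to 17 alone (0.0461%). They became 4 without mouse 8 in both tissues (1.2%) and 0 to 9 with a library left out (1.06% in the run with 0). The 9 calls in cortex against PBS became 2 on the groups compared alone (1.26%) and 5 without mouse 8 in both tissues (1.44%). With a library left out they became 2 to 9 (1.3% in the run with 2). The shares for the cortex runs with 9 calls are not reported here. RLE size factors changed no count.

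With the mouse as a replicate block in limma-voom, 0 (hippocampus against pCtrl), 1 (hippocampus against PBS), 2 (cortex against pCtrl) and 5 (cortex against PBS) genes were called, and without the block 0, 1, 1 and 1. The block and the fixed block in edgeR changed no other call: the tissue difference and the PBS tissue comparison kept 0. With 4 α-IgLON5#1 mice, of which 1 decides most counts, the size of each difference is known only to within the ranges given, and few reads limit Gbp6.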
